A study of Mus musculus with 27 samples.

Results

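CD200 and its receptors were followed across mouse bone marrow cultures as 5 genes: the ligand Cd200 and the 4 receptor genes Cd200r1, Cd200r2, Cd200r3 and Cd200r4. They are 5 of the 19935 genes, and 5 of the 28815 probe sets, measured on the arrays. Members were chosen by gene symbol: a probe set had to be annotated with one of the 5 symbols and no other gene, and among several for a gene it was to be selected on the highest mean log2 signal over all 27 arrays. Each gene had 1 such probe set, so the measured signal decided no choice. The family was put forward with results of these arrays already known, so the p-values below describe it and are not independent evidence for it.

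CD200 is a membrane glycoprotein of the immunoglobulin superfamily, made by lymphocytes, neurons and endothelium among others, that binds CD200R1 on myeloid cells. CD200R1 carries a long cytoplasmic tail that recruits Dok adaptors and RasGAP and dampens myeloid activation. The other receptors of the mouse cluster have short tails, and Cd200r3 and Cd200r4 encode receptors that pair with the activating adaptor DAP12. Cd200r3 is known in mice from basophils and mast cells.

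Expression was measured on 1-colour Affymetrix arrays in marrow from the femurs and tibiae of C57BL/6 mice aged 8 to 12 weeks. Cells received cyclosporin A (CsA) together with Flt3 ligand (Flt3-L) and were harvested after 12 h, 24 h, 48 h or 11 days, or Flt3-L alone for the same times, or were left unstimulated, with 3 arrays per group in 9 groups. Flt3-L, a cytokine that drives marrow progenitors toward dendritic and other myeloid cells, was used at about 200 ng/ml and came from transfected B16 cells. CsA, which blocks the phosphatase calcineurin and through it the NFAT transcription factors, was given at 2 µg/ml starting 30 min ahead of Flt3-L, for the whole culture. All groups are of the same strain, with no gene altered. The series calls the replicates biological, but whether they came from separate mice is not stated, nor whether the unstimulated cells were fresh or cultured. Flt3-L and time in culture therefore cannot be told apart.

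The median signal of an array was 114.2 to 124.8 (normalised, linear scale). Within groups, arrays correlated at 0.9964 or more across probe sets, and 25 of 27 arrays most resembled another array of their group. CsA array 3 at 12 h and CsA array 3 at 24 h were each closest to Flt3-L array 3 of the same time. The unstimulated cells carried neutrophil (summed signal of 6 genes 37441.4 to 38451.1), erythroid (5 genes, 17562.9 to 19643.0) and B lineage markers (7 genes, 11782.1 to 12591.2), as marrow does. By 11 days of Flt3-L alone the summed signal of 9 monocyte and macrophage markers lay between 44087.0 and 45539.5, against 5644.6 to 5981.3 in unstimulated cells. In such bulk cultures, fewer cells of a type and less RNA per cell cannot be told apart. Signals below are linear, differences are log2 with their SE, and calls rest on an adjusted p below 0.05 in 1 limma model of all arrays.

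All 5 genes lie on chromosome 16 in the GRCm38.p6 annotation of RefSeq. The receptors form a cluster of 292630 bases in the order Cd200r1 (chr16:44765736-44794977), Cd200r4 (chr16:44811650-44839150), Cd200r2 (chr16:44867097-44915840) and Cd200r3 (chr16:44943596-45058365). Cd200 lies farther along (chr16:45382111-45409060), so the family spans 643325 bases. Beside it lies Gm609, also called isec1, a gene with a Cd200-like product. Its signal was 11.6 to 14.6 on all 27 arrays, between percentiles 5.3 and 7.7 of the probe sets of an array.

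RefSeq start-site windows, 250 bases before and 50 after an annotated start, were at hand for 4 of the 5 genes, all but Cd200r1. The windows of Cd200r4 (chr16:44820478-44820777, plus strand) and Cd200r3 (chr16:44943428-44943727, plus strand) are shown because they share a stretch of near-identical sequence while the signals of the 2 genes parted: both were higher at 12 h and 24 h of Flt3-L, whereas Cd200r3 was lower and Cd200r4 higher at 48 h and 11 days, and with CsA from 24 h on. The Cd200r3 call at 24 h of Flt3-L was lost under several settings, as given below. Capitals mark the 150 bases that align between the 2 windows.

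Cd200r4: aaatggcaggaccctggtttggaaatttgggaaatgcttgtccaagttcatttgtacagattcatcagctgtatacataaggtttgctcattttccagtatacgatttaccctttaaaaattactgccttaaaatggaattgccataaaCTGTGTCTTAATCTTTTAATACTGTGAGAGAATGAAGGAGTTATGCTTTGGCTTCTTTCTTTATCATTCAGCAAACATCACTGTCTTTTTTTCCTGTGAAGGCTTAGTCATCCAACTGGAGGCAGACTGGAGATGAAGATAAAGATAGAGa

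Cd200r3: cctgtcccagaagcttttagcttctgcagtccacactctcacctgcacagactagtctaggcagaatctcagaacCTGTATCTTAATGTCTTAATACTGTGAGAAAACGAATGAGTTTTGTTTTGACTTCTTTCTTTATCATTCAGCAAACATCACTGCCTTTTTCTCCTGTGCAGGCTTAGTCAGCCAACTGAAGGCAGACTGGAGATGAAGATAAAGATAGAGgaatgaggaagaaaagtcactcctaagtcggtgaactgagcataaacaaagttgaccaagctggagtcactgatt

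The alignment has no gaps, 136 of its 150 columns are identical (90.7%), and the longest shared run is 32 bases. The stretch lies at bases 150 to 299 of the Cd200r4 window and at 76 to 225 of the Cd200r3 window. It thus runs across the Cd200r4 start but ends before the Cd200r3 start. No other pair of the 4 windows shared more than 9 bases in its best local match, at match 1, mismatch -2 and gaps of -3 and -1. Of the 4 windows, that of Cd200r2 belongs to the outermost annotated base of its gene. Those of Cd200r4, Cd200r3 and Cd200 belong to starts inside the annotated gene, that of Cd200r4 the farthest in. On both strands, GGAAA, the core of NFAT sites, occurred 4 times in the Cd200r4 window, 3 times in the Cd200r2 window (chr16:44866847-44867146, plus strand) and 0 times in the Cd200r3 and Cd200 windows. Of all 32851 windows of this length, 61.3% hold it at least 1 time. The share of windows that hold it 3 or 4 times is not given here, so these counts show no enrichment. AGATAA, read by GATA factors, occurred 1 time each in Cd200r4, Cd200r3 and Cd200 and 0 times in Cd200r2, and 11.2% of windows hold it. The Cd200r4 and Cd200r3 matches both lie in the aligned stretch. The AP-1 letters TGANTCA (7.8% of windows) and the PU.1 letters GAGGAAGT (3.2%) were in none of the 4. Each motif was counted apart from the others, overlapping matches included. A match describes letters only. Probe sequences were not used here, so cross-hybridisation among the receptors was not tested.

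Flt3-L alone was first compared with unstimulated cells, the background against which the cultures with CsA were set. The inhibitory receptor gene Cd200r1, the ligand gene Cd200, Cd200r4 and Cd200r2 all had their highest mean signals at 11 days. Of these, Cd200r4 and Cd200r2 were already high at 12 h, and the 11-day arrays of Cd200r2 overlapped those of 24 h. Cd200r3 fell. At 12 h all 5 genes were called, 4 higher and Cd200 lower, where 36% of all genes were called, 17.8% higher and 18.1% lower. At 24 h it was 4 genes, all higher, where 35.6% of all genes were called, 17.9% higher and 17.7% lower. At 48 h it was 5 genes, 4 higher and Cd200r3 lower, where 37.1% of all genes were called, 18.5% higher and 18.6% lower. At 11 days it was again 5 genes, 4 higher and Cd200r3 lower, where 51.9% of all genes were called, 27.2% higher and 24.8% lower. These 4 comparisons share the unstimulated arrays.

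**Figure D1:**
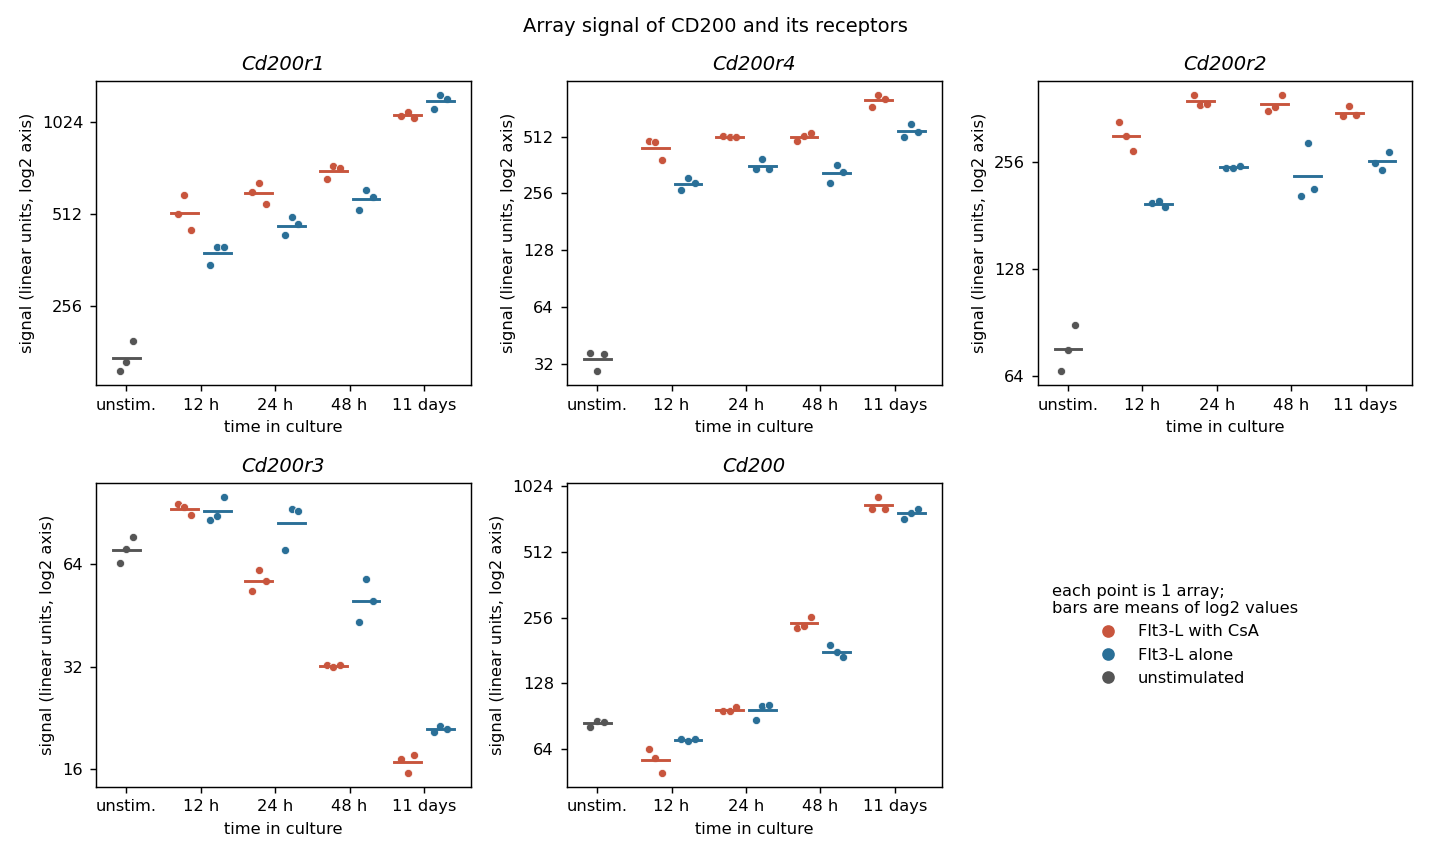
Normalised signal (log scale) of each family gene on the 27 arrays; points are arrays and bars are means of the log2 values, with CsA left of Flt3-L alone at each time. Cd200r4 lay at 29.2 to 36.4 in unstimulated cells and at 266.4 or more on every Flt3-L array, while Cd200r3 ended at 15.6 to 17.6 with CsA and 20.6 to 21.5 without at 11 days.

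Cd200r1, the inhibitory receptor, had signals of 347.0, 397.9 and 398.1 at 12 h of Flt3-L, and of 1127.6, 1256.7 and 1216.6 at 11 days, against 156.1, 167.6 and 196.6 in unstimulated cells. Between these lay 435.9, 499.7 and 472.6 at 24 h and 527.2, 615.2 and 580.6 at 48 h. Every Flt3-L array was above every unstimulated one. The difference was 1.14 ± 0.09 at 12 h (2.20-fold), 1.44 at 24 h, 1.73 at 48 h and 2.80 ± 0.09 at 11 days (6.95-fold, adjusted p = 5.45e-19). Each step was called: 0.30 between 12 h and 24 h, 0.29 between 24 h and 48 h, and 1.06 ± 0.09 between 48 h and 11 days. The 2 small steps had adjusted p of 0.0314 and 0.0283, and the second was lost without array 1 or 3 of 24 h or array 2 or 3 of 48 h (up to 0.139).

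Cd200r4, the DAP12-paired receptor of the second position in the cluster, had 266.4, 309.7 and 289.8 at 12 h of Flt3-L against 36.4, 29.2 and 36.2 in unstimulated cells. It then had 343.5, 388.5 and 346.3 at 24 h, 290.6, 362.5 and 334.0 at 48 h, and 509.5, 599.5 and 542.4 at 11 days. Its rise at 12 h, 3.09 ± 0.10 (8.53-fold, adjusted p = 8.6e-18), was the sixth largest of the 19935 genes. The rise was 3.41 at 24 h (10.6-fold), 3.28 at 48 h (9.71-fold) and 4.02 ± 0.10 at 11 days (16.3-fold). Between 24 h and 48 h it did not pass the test (-0.13, 95% interval -0.33 to 0.07), and between 48 h and 11 days it rose by 0.75 ± 0.10.

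Cd200r2, the short-tailed receptor gene next in the cluster, had 196.5, 199.6 and 191.7 at 12 h of Flt3-L against 66.1, 76.1 and 89.3 in unstimulated cells. Later arrays stayed near that: 247.1, 247.6 and 249.7 at 24 h, 205.4, 290.1 and 216.1 at 48 h, and 255.8, 243.4 and 274.7 at 11 days. Differences from unstimulated cells were 1.36 ± 0.10 at 12 h (2.56-fold), 1.70 at 24 h, 1.61 at 48 h and 1.75 at 11 days (3.36-fold). The steps after 24 h did not pass the test, at -0.08 (95% interval -0.29 to 0.12) and 0.14 (-0.07 to 0.34). Without Flt3-L array 2 at 48 h, the step to 11 days was called at 0.29 (adjusted p = 0.0101).

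The step between 12 h and 24 h was called for Cd200r1, Cd200r2, Cd200r4 and Cd200 (11.1% of all genes were), and leaving out 1 array left 1 to 3 of the 4. The Cd200r2 call was lost without any one of the 6 arrays (adjusted p up to 0.0888). The calls of Cd200r1 and Cd200r4 were lost without array 1 of 12 h or array 2 or 3 of 24 h, and that of Cd200r4 also without array 3 of 12 h (adjusted p up to 0.186 and 0.183), or, for Cd200r4, with array medians subtracted (0.0519).

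Cd200r3, the DAP12-paired receptor of basophils and mast cells, had 86.2, 88.9 and 101.3 at 12 h of Flt3-L against 64.4, 71.0 and 76.9 in unstimulated cells. It had 70.5, 93.4 and 91.8 at 24 h, 43.3, 58.0 and 50.1 at 48 h, and 20.6, 21.5 and 21.0 at 11 days. The 12 h arrays were above the unstimulated ones (0.38 ± 0.10, adjusted p = 0.0033), and those at 48 h and 11 days were below them. The fall was 0.49 by 48 h and 1.75 ± 0.10 by 11 days (3.36-fold lower, adjusted p = 3.89e-14). At 24 h the difference was 0.26 (adjusted p = 0.0414), with arrays overlapping, and this call was lost without unstimulated array 1 or 2 or Flt3-L array 2 or 3 (adjusted p up to 0.199). It was lost also with array medians subtracted (0.0725), after quantile normalization (0.172) and with only the groups compared (0.0843).

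Cd200, the ligand, had 71.0, 69.9 and 71.0 at 12 h of Flt3-L against 80.7, 86.5 and 85.7 in unstimulated cells, with no overlap. It had 87.2, 100.7 and 101.7 at 24 h, 191.1, 177.6 and 168.2 at 48 h, and 723.6, 769.9 and 805.3 at 11 days. The gene was thus lower at 12 h (-0.25 ± 0.08, adjusted p = 0.0132) and higher at 48 h (1.08, 2.12-fold) and 11 days (3.18 ± 0.08, 9.09-fold, adjusted p = 2.45e-21). At 24 h all Flt3-L arrays were above the unstimulated ones, but 0.19 did not pass the test (adjusted p = 0.0613). It was called there without Flt3-L array 1 (0.0165), with array weights (0.0189), with the dimmest genes left out (0.0424) and with the replicate block when these groups alone were fitted (0.0269). Cd200 rose at every step, by 0.45 between 12 h and 24 h, 0.89 between 24 h and 48 h and 2.10 ± 0.08 between 48 h and 11 days. The step between 24 h and 48 h was called for 3 family genes (17.1% of all genes), and that between 48 h and 11 days for 4 (43%).

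CsA was set against Flt3-L alone at each time, to ask how the family differed with this drug. Whether the differences pass through calcineurin was not tested. Cd200r4 and Cd200r2 were higher with CsA at all 4 times, Cd200r1 at 12 h and 24 h, and Cd200r3 was lower at 24 h, 48 h and 11 days. Of the 5 genes, 4 were called at 12 h, 3 higher and 1 lower, where 6.73% of all genes were called, 2.82% higher and 3.91% lower. That split of all genes, 562 higher and 779 lower, became 1052 higher and 323 lower with array medians subtracted. At 24 h it was also 4, 3 higher and 1 lower, where 3.78% of all genes were called, 1.6% higher and 2.19% lower. At 48 h it was again 4, 3 higher and 1 lower, where 4.51% of all genes were called, 2.17% higher and 2.35% lower. At 11 days it was 3, 2 higher and 1 lower, where 12% of all genes were called, 4.92% higher and 7.08% lower. Averaged over the 4 times, 4 genes were called, 3 higher and 1 lower, where 16% of all genes were called, 7.76% higher and 8.22% lower. They were Cd200r2 at 0.59 ± 0.05, Cd200r4 at 0.58 ± 0.05, Cd200r1 at 0.24 ± 0.05 and Cd200r3 at -0.38 ± 0.05. Cd200r2 and Cd200r4 ranked 11 and 12 of the 19935 genes from the highest mean effect.

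**Figure D2:**
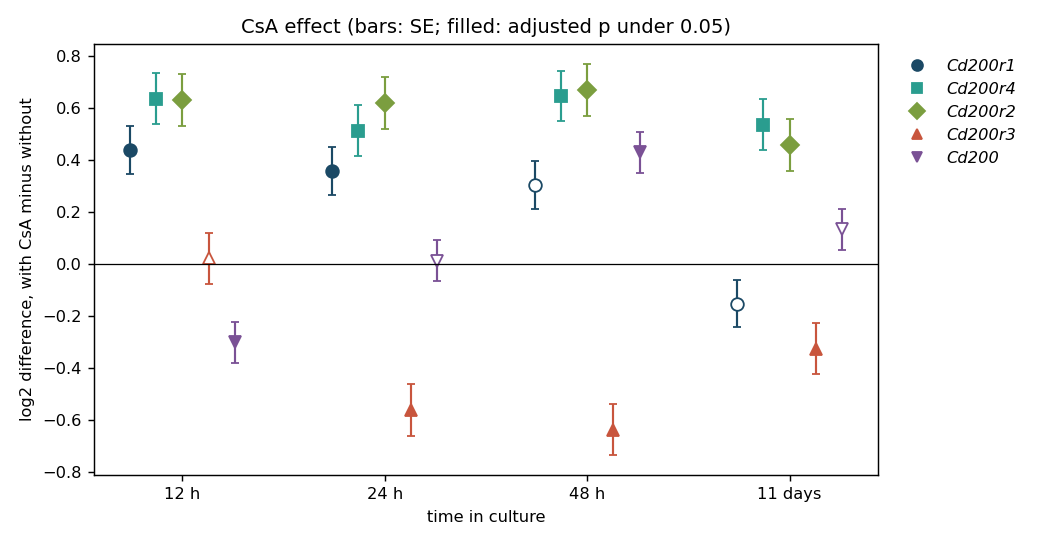
Log2 difference (y axis) of CsA against Flt3-L alone at each time for the 5 genes, with SE bars from the limma model and filled symbols where the gene was called. Cd200r4 and Cd200r2 stay between 0.46 and 0.67 at all 4 times, whereas Cd200r1 goes from 0.44 at 12 h to -0.15 at 11 days and Cd200r3 from 0.02 to -0.64 at 48 h.

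For Cd200r4, the 12 h arrays read 483.5, 479.0 and 386.2 with CsA against 266.4 to 309.7 with Flt3-L alone. At 24 h they read 515.1, 511.2 and 508.3 with CsA against 343.5 to 388.5, and at 48 h 484.6, 515.8 and 537.8 with CsA against 290.6 to 362.5 with Flt3-L alone. At 11 days they read 732.0, 851.9 and 807.5 with CsA against 509.5 to 599.5 with Flt3-L alone. The groups did not overlap at any time. Differences were 0.63 ± 0.10 at 12 h (1.55-fold, adjusted p = 0.000438), 0.51 at 24 h (0.00205), 0.64 at 48 h (0.000133) and 0.53 at 11 days (1.45-fold, 0.000292). All 4 calls held without any 1 array and under each other setting tried.

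For Cd200r2, the 12 h arrays read 331.9, 303.0 and 276.5 with CsA against 191.7 to 199.6 with Flt3-L alone. At 24 h they read 396.7, 371.7 and 374.6 with CsA against 247.1 to 249.7, and at 48 h 358.1, 365.6 and 395.7 with CsA against 205.4 to 290.1 with Flt3-L alone. At 11 days they read 345.3, 368.9 and 347.4 with CsA against 243.4 to 274.7 with Flt3-L alone. Here too the groups did not overlap at any time. Differences were 0.63 ± 0.10 at 12 h (1.55-fold, adjusted p = 0.000662), 0.62 at 24 h (0.000342), 0.67 at 48 h (1.59-fold, 0.000122) and 0.46 at 11 days (1.37-fold, 0.0022).

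For Cd200r1, the 12 h arrays read 511.9, 589.3 and 453.4 with CsA against 347.0 to 398.1 with Flt3-L alone. At 24 h they read 605.8, 644.5 and 552.7 with CsA against 435.9 to 499.7, and at 48 h 665.2, 734.1 and 724.8 with CsA against 527.2 to 615.2 with Flt3-L alone. At 11 days they read 1073.9, 1104.7 and 1058.0 with CsA against 1127.6 to 1256.7 with Flt3-L alone. All CsA arrays were thus higher at the first 3 times and lower at the last. The rise was called at 12 h (0.44 ± 0.09, 1.36-fold, adjusted p = 0.0064) and at 24 h (0.36 ± 0.09, 0.024). At 48 h it was 0.30 ± 0.09 (adjusted p = 0.058). It was called there with the replicate number as a block (0.0172, or 0.0193 with only the groups compared) and with array weights (0.0221). It was also called after quantile normalization (0.035), with a variance trend (0.0373) and with the dimmest genes left out (0.0383). It stayed uncalled under the other settings and without any 1 array. At 11 days the difference was -0.15 (95% interval -0.34 to 0.04, adjusted p = 0.322). The 12 h call was lost without CsA array 2 (0.0648) and with only the groups compared (0.0817, or 0.0616 with the replicate block), and the 24 h call without Flt3-L array 1 or 3 or CsA array 1 or 2 (up to 0.146).

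For Cd200r3, the 12 h arrays read 96.0, 94.4 and 89.6 with CsA against 86.2 to 101.3 with Flt3-L alone, and overlapped. At 24 h they read 53.4, 61.5 and 57.3 with CsA against 70.5 to 93.4, and at 48 h 32.3, 31.9 and 32.5 with CsA against 43.3 to 58.0 with Flt3-L alone. At 11 days they read 17.2, 15.6 and 17.6 with CsA against 20.6 to 21.5 with Flt3-L alone. From 24 h on, every CsA array was below every array without it. Differences were 0.02 at 12 h (95% interval -0.18 to 0.23), -0.56 ± 0.10 at 24 h (1.48-fold lower, adjusted p = 0.000865), -0.64 at 48 h (1.56-fold lower, 0.000183) and -0.33 at 11 days (1.25-fold lower, 0.0293). At 11 days the CsA signals lay between percentiles 8.3 and 9.9 of the probe sets of an array, and the call was lost without any one of 5 of the 6 arrays, all but CsA array 3 (adjusted p up to 0.144).

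For Cd200, the 12 h arrays read 64.5, 58.5 and 49.9 with CsA against 69.9 to 71.0 with Flt3-L alone. At 24 h they read 95.5, 95.6 and 100.4 with CsA against 87.2 to 101.7, and at 48 h 229.9, 234.9 and 258.1 with CsA against 168.2 to 191.1 with Flt3-L alone. At 11 days they read 801.6, 914.7 and 806.3 with CsA against 723.6 to 805.3 with Flt3-L alone. The CsA arrays were lower at 12 h, higher at 48 h, and overlapped those without it at 24 h and 11 days. At 48 h Cd200 was higher by 0.43 ± 0.08 (1.35-fold, adjusted p = 0.00114). At 12 h it was lower (-0.30 ± 0.08, 0.0262). That call was lost with array medians subtracted (0.0657), after quantile normalization (0.247) and with only the groups compared (0.119, or 0.0942 with the replicate block). It was lost also without any one of 5 of the 6 arrays, all but CsA array 1 (up to 0.0768). The differences at 24 h (0.01, 95% interval -0.15 to 0.18) and 11 days (0.13, -0.03 to 0.30) did not pass the test.

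Whether the CsA effect differed among the 4 times was tested for each gene with an F test of 3 degrees of freedom in the same model, which called 9.82% of all genes. It called Cd200 (F = 14.6, adjusted p = 0.00057), Cd200r3 (9.02, 0.00749) and Cd200r1 (8.44, 0.0103). It did not call Cd200r2 (0.87, adjusted p = 0.65) or Cd200r4 (0.49, 0.808). The effect at 11 days, less the average of the effects at 12 h, 24 h and 48 h, was called for Cd200r1 alone of the 5 (-0.52 ± 0.11, adjusted p = 0.00128), where 11.9% of all genes were called. For Cd200r4 it was -0.06 (95% interval -0.29 to 0.17) and for Cd200r2 -0.18 (-0.42 to 0.06).

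Ordered by their mean over the 9 groups, the levels of Cd200r4 ran upward from unstimulated cells through Flt3-L at 12 h, 48 h and 24 h, CsA at 12 h, 24 h and 48 h, and Flt3-L at 11 days, to CsA at 11 days. Of its 8 pairs of neighbours in that order, 5 had overlapping arrays. For Cd200r2 the highest group was CsA at 24 h, and 4 of 8 neighbouring pairs overlapped. Cd200r1 was highest with Flt3-L alone at 11 days, with 3 of 8 overlapping. Cd200r3 was highest in CsA at 12 h and lowest in CsA at 11 days, with 4 of 8 overlapping. Cd200 was lowest in CsA at 12 h and highest in CsA at 11 days, with 2 of 8 overlapping. Overlaps were counted for these genes alone, so the number usual for a gene on these arrays is not known.

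Cell type markers moved in the same cultures. Their counts, here and in the next paragraph, stand beside the shares of all genes called. With CsA these were 2.82% higher and 3.91% lower at 12 h, and 1.6% and 2.19% at 24 h. They were 2.17% and 2.35% at 48 h, and 4.92% and 7.08% at 11 days. At 11 days of Flt3-L alone, 27.2% of all genes were called higher and 24.8% lower than in unstimulated cells. The 9 monocyte and macrophage markers summed to 13013.9 to 14608.6 with CsA and 14065.9 to 14859.7 with Flt3-L alone at 12 h, and to 46554.4 to 47439.9 with CsA and 44087.0 to 45539.5 without it at 11 days. With CsA, 0 of them were called higher and 2 lower at 12 h, 0 and 1 at 24 h, 1 and 0 at 48 h, and 0 and 0 at 11 days. The 8 conventional dendritic cell markers summed to 7836.8 to 9865.2 with CsA and 13601.8 to 14935.2 with Flt3-L alone at 11 days, with 7 of 8 called lower. B lineage cells are one source of CD200, and their 7 markers summed to 6376.1 to 7798.3 with CsA and 9332.3 to 10417.4 with Flt3-L alone at 48 h, when Cd200 was higher with CsA, with 5 of 7 called lower. The 5 T cell markers summed then to 432.4 to 444.1 with CsA and 449.4 to 464.3 without it (0 of 5 called), and the 6 endothelial and stromal markers to 1207.7 to 1286.1 with CsA and 1303.4 to 1359.4 without it (1 of 6 called, lower). At 11 days of Flt3-L alone, when Cd200 was highest without CsA, 7 of 7 B lineage, 5 of 5 T cell and 6 of 6 endothelial and stromal markers were lower than in unstimulated cells. Other lists rose in that comparison. The conventional dendritic cell markers summed to 13601.8 to 14935.2, against 4180.4 to 4196.3 in unstimulated cells. The monocyte and macrophage markers summed to 44087.0 to 45539.5, against 5644.6 to 5981.3. The B lineage markers summed to 552.3 to 594.0 with CsA and 1676.8 to 2154.7 with Flt3-L alone at 11 days, with 5 of 7 called lower. No value on these arrays is 0 (the lowest is 5.2) and no detection calls were used, so whether each marker was detected is not known. The part of these lists in the family's differences was not tested.

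Most of the 10 basophil and mast cell markers fell in the cultures in which Cd200r3 fell: 8 of 10 were called lower at 11 days of Flt3-L alone, among them the proteases Mcpt8 and Prss34, the IgE receptor chains Fcer1a and Ms4a2 and the histamine enzyme gene Hdc. Cma1 (-0.11) and Tpsb2 (0.01) did not pass that test. Their summed signal was 6780.3 to 7750.5 with CsA and 7830.5 to 8104.4 with Flt3-L alone at 12 h, and 4008.2 to 4364.7 with CsA and 5991.4 to 6475.4 without it at 24 h. It was 2536.8 to 2797.9 with CsA and 3944.5 to 4070.8 with Flt3-L alone at 48 h, and 680.7 to 758.3 with CsA and 766.8 to 885.7 without it at 11 days, against 7713.3 to 8731.6 in unstimulated cells. With CsA, 0, 4, 6 and 3 of the 10 were called lower at 12 h, 24 h, 48 h and 11 days, and 0 were called higher. Mcpt8 was lower with CsA at 24 h (-1.31 ± 0.16) and 48 h (-0.93 ± 0.16), and so was Prss34 (-0.94 ± 0.10 and -0.84 ± 0.10). Gata2, a transcription factor of mast cells and basophils, was lower at 24 h (-0.26) and 48 h (-0.41). The 5 eosinophil markers summed to 2975.6 to 3292.0 with CsA and 5893.8 to 6333.4 with Flt3-L alone at 24 h, with 5 of 5 called lower at 24 h, 48 h and 11 days. Whether each of these markers was detected is likewise not known. Their part in the Cd200r3 difference was not tested.

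**Figure D3:**
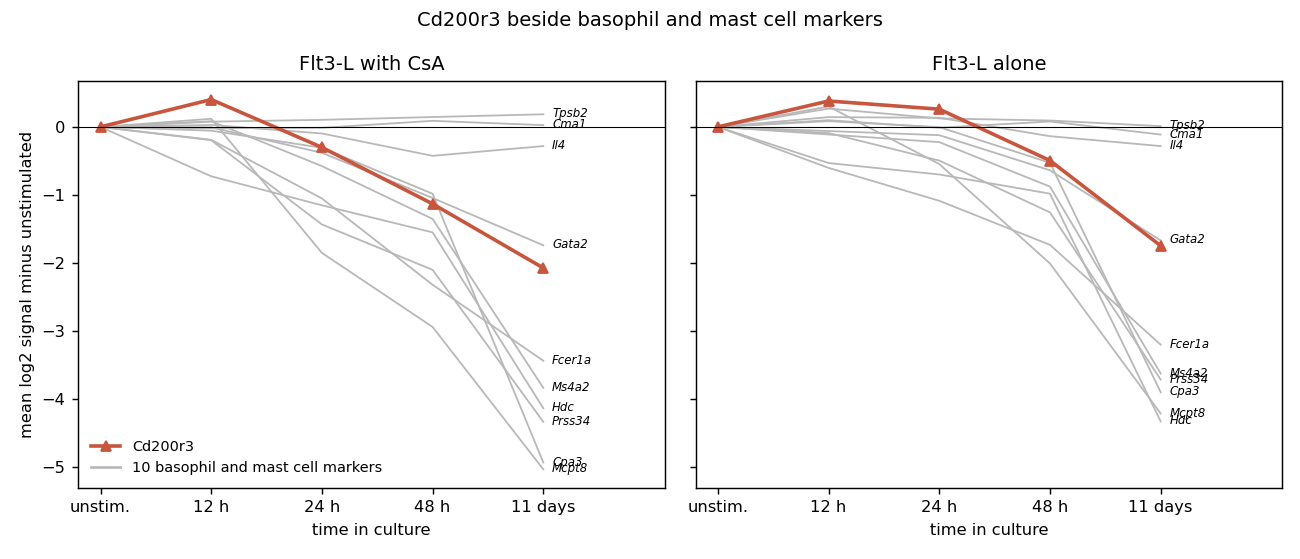
Mean log2 signal minus that of unstimulated cells (y axis) over time, for Cd200r3 (red) and each of the 10 basophil and mast cell markers (grey), with CsA in the left panel and Flt3-L alone in the right. At 11 days of Flt3-L alone Cd200r3 stands at -1.75, Mcpt8 at -4.21 and Gata2 at -1.67, while Cma1 and Tpsb2 stay near 0.

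The counts of genes called in the lists that follow stand beside 7.76% higher and 8.22% lower over all genes in the mean CsA effect, and 27.2% higher and 24.8% lower at 11 days of Flt3-L alone. The list of CD200R1 signalling genes, adaptors and regulators of Ras, held 9 tested genes. Averaged over the times, 0 of them were called higher and 4 lower with CsA: the adaptors Dok2 (-0.26 ± 0.04) and Dok3 (-0.21 ± 0.03), the RasGAP gene Rasa1 (-0.15 ± 0.03) and the phosphatase gene Inpp5d (-0.07 ± 0.02). The list's median was -0.06, against -0.0017 over all genes. The falls of Dok2, Dok3 and Rasa1 were called at 11 days (-0.52, -0.51 and -0.48), and 0 of the 9 were called at 12 h, 24 h or 48 h. With Flt3-L alone at 11 days, 5 were higher and 4 lower than in unstimulated cells, where 51.9% of all genes were called, among them Rasa1 (1.503 ± 0.06), Dok2 (1.38 ± 0.08) and Dok3 (-1.43 ± 0.06).

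Of 8 tested DAP12 signalling genes, 1 was called higher with CsA in the mean over the times and 2 lower. These were the adaptor Lcp2 (0.10 ± 0.03), the Src family kinase gene Fgr (-0.30 ± 0.04) and the kinase gene Syk (-0.07 ± 0.03), with a list median of -0.02. The means join unlike times: Syk was lower with CsA at 24 h (-0.23 ± 0.05) and 48 h (-0.24 ± 0.05) and higher at 11 days (0.23 ± 0.05, adjusted p = 0.00289). Lcp2 was called at 11 days (0.40 ± 0.06) and not at 12 h (0.01), 24 h (-0.04) or 48 h (0.03). Fgr was called at 11 days (-0.65 ± 0.07) and not at the earlier times. Tyrobp, which encodes DAP12 itself, differed by -0.03 ± 0.03 (adjusted p = 0.639), and with Flt3-L alone at 11 days it was 0.43 ± 0.06 higher than in unstimulated cells. A list of myeloid receptors drawn up as DAP12-paired was set beside Cd200r4. Pairing is not established for every gene on it, Klrb1b and Cd300ld among them, so the counts describe the list alone. Of its 11 tested genes, 0 were called higher with CsA and 6 lower in the mean, where 16% of all genes were called. Among them were Cd300ld (-0.74 ± 0.06), Trem1 (-0.46 ± 0.08) and Klrb1b (-0.37 ± 0.08). Their median was -0.18, while Trem2, a macrophage receptor, differed by 0.02 ± 0.03 (adjusted p = 0.729).

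The inhibitory myeloid receptors, together with Cd47, the ligand of Sirpa, made a list of 12. Of these, 2 were called higher with CsA in the mean, the receptor Cd300lf (0.25 ± 0.05) and the ligand Cd47 (0.09 ± 0.02). The 4 called lower were Pilra (-0.20 ± 0.04), Fcgr2b (-0.12 ± 0.03), Sirpa (-0.11 ± 0.02) and Pirb (-0.09 ± 0.03). The median of the list was 0.0025. With Flt3-L alone at 11 days, 7 of the 12 were higher and 4 lower than in unstimulated cells, where 51.9% of all genes were called, among them Lair1 (1.64 ± 0.07), Cd300a (1.45 ± 0.06) and Siglece (-4.11 ± 0.10).

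In the stretch that runs from 100000 bases before Cd200r1 to 100000 bases past Cd200 lay 7 further tested genes, which were followed to set the family beside its surroundings. With CsA, in the mean over the times, Gtpbp8 (0.24 ± 0.03) and Gm609 (0.13 ± 0.03) were called higher and Btla (-0.59 ± 0.06) lower. Gm609 was dim, at 11.6 to 14.6 on all arrays, and its CsA difference was called at no single time. Btla, an inhibitory receptor gene of lymphocytes, lies between the receptor cluster and Cd200. Slc35a5 (-0.09), Nepro (0.08), Ccdc80 (0.01) and Atg3 (-0.01) did not pass the test. With Flt3-L alone at 11 days Gtpbp8 was higher (0.89 ± 0.06), and Ccdc80 (-0.97 ± 0.07) and Atg3 (-0.25 ± 0.08) were lower than in unstimulated cells.

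**Figure D4:**
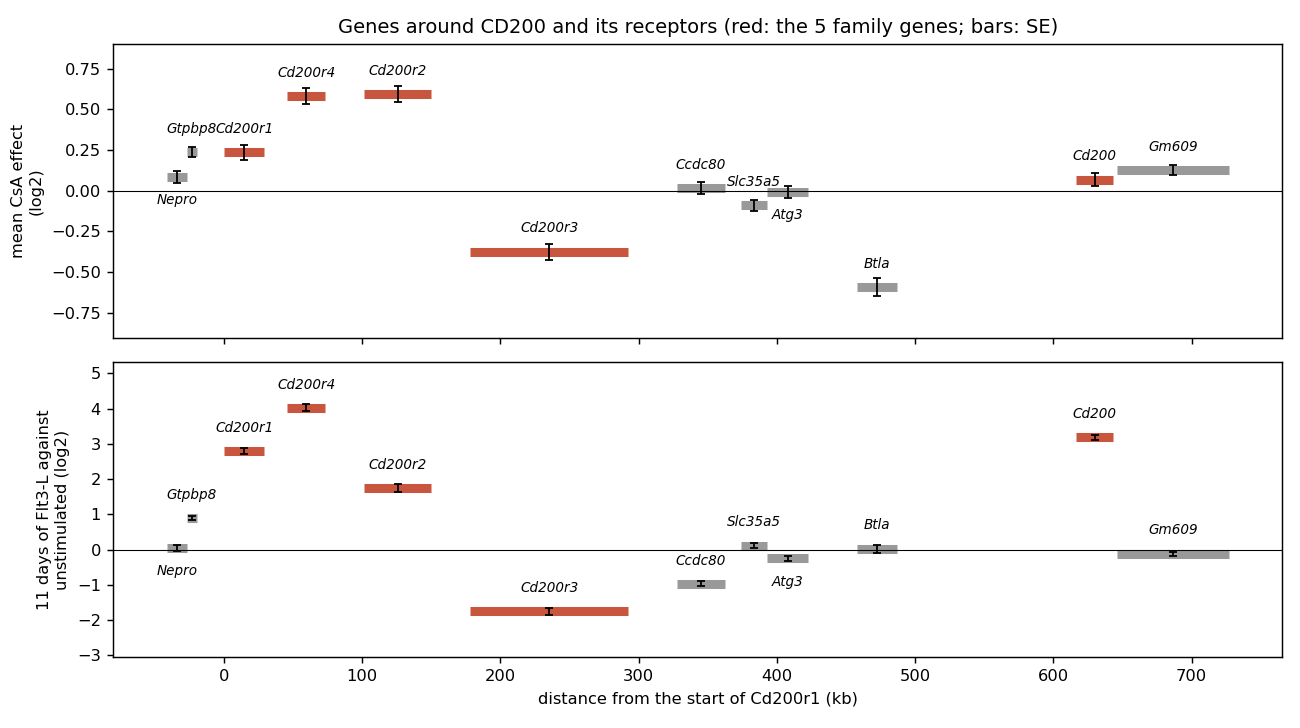
Genes around the family by distance in kb from the start of Cd200r1, with the mean CsA effect above and the change after 11 days of Flt3-L below, both log2 with SE bars. Cd200r4 (0.58) and Cd200r2 (0.59) stand above their neighbours in the upper panel, and Cd200r3 (-0.38) and Btla (-0.59) below 0.

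Over the 9 group means, which share arrays and normalization, Cd200r2 and Cd200r4 correlated at 0.96, Cd200r1 and Cd200r4 at 0.90 and Cd200r3 and Cd200 at -0.98. Among 3739 genes whose group means ranged over at least 1 log2 unit, those most like Cd200r2 were Vegfa (0.99), Klk1b11, Insig1, Cd93 and Tspyl2. Those most like Cd200r4 were Fbxo6 (0.99), Sqstm1, Ptpn23, Gpnmb and Msmo1. For Cd200r1 they were Samd8 (0.99), Zfp709, Idua, AI413582 and Ppm1h. For Cd200r3 they were Eml5 (0.99), Hmgcll1, Spata13, Lef1 and Lgr5, and for Cd200 Gas2l1 (0.998), Abi2, Snx12, Pip4p2 and Yae1d1. These likenesses are descriptions over 9 points.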

How the data were processed

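Total RNA was extracted with Trizol and labelled with biotin, per the labels' protocols. The authors deposited one intensity per probe set and array, summarised by RMA (no version given) per the submitters' processing notes. They run from 5.2 to 18180.7, a linear scale, so log2 was taken here. The plan had assumed log2 values.

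Of 28815 probe sets, 21780 had a single gene symbol in the platform annotation, 1605 several (left out) and 5430 none. Each of 19935 genes was represented by its probe set of highest mean. R 4.3.3 with limma 3.58.1 fitted the means of 9 groups, moderated variances by empirical Bayes and adjusted p-values over all genes (Benjamini-Hochberg). The fit was tested on simulated data. The F test was added after the data had been seen. Python 3.11.15, pandas 2.3.3, numpy 2.4.6, matplotlib 3.10.9 and Biopython 1.88 made tables, plots and alignments. The number of arrays limits the precision. No detection calls were used.

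The members, gene lists and comparisons were chosen with earlier results of these data known. Of 115 list entries, 107 were matched, and the rest are not reported here. Named genes were all members, the 5 genes most like each, and up to 4 of each pathway list with the largest mean CsA effect or 11-day change. The neighbours on the chromosome were added by place, and Tyrobp, Inpp5d, Syk, Pirb, Cd47 and the markers after their values were seen.

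Arrays of equal replicate number deviated together (all 3 correlations above 0.1) for CsA against Flt3-L alone at 24 h (0.37, 0.35 and 0.40) and 48 h (0.54, 0.18 and 0.19). The rule was not met at 11 days (0.01, 0.11 and -0.04). At 12 h (0.19, 0.19 and 0.10) the third value fell just short of it before rounding. There, 3 of 3 CsA arrays correlated best with the Flt3-L array of their own number, against 1 of 3 at 48 h. The rule was met too for Flt3-L alone against unstimulated cells at 12 h (0.20, 0.14 and 0.10) and 24 h (0.35, 0.13 and 0.18). It was also met between 24 h and 48 h of Flt3-L (0.46, 0.45 and 0.41), and in no other comparison. The labels state no pairing, so the model has no block. Alternatives were variance trend, array weights, a filter on dim genes, renormalization, the replicate block, the compared groups alone and leaving out arrays.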

Additional observations from a re-analysis of the deposited data

Results flagged for a closer look

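Cd200r1 responded to CsA differently at 11 days than before. Its effect there minus the mean of the 3 earlier effects was -0.52 (adjusted p = 0.00128, limma). The test of unequal effects among the 4 times also called it, at F = 8.44. Taken alone, the differences at 48 h (0.30, adjusted p = 0.058) and 11 days (-0.15, 0.322) were not called by limma. All 3 CsA arrays lay above the Flt3-L arrays at 12 h, 24 h and 48 h and below them at 11 days. The share of all genes whose arrays separate in this way is not given here.

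Cd200r3 was picked out by the same test (F = 9.02), its CsA effect being 0.02 at 12 h and -0.64 at 48 h. Cd200 had the largest F of the 5 genes (14.6), being lower with CsA at 12 h (-0.30) and higher at 48 h (0.43). Its 12 h call was lost under several settings and without most single arrays, as given above.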

How the results depend on the processing

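The CsA calls of Cd200r2 and Cd200r4 held at all 4 times under every alternative run. The number of genes called with CsA at 12 h, 1341, was 5301 with array weights, 3151 without CsA array 3 of 12 h and of 24 h (an alternative chosen after seeing the data), and 177 with only the groups compared, which has fewer arrays. Leaving out 1 array gave 332 to 3221, the highest without CsA array 3. The family genes called there, 4, were 2 with only the groups compared and 2 to 4 without 1 array. At 24 h, 754 genes became 396 with only the groups compared and 475 to 594 without 1 array, and at 48 h 900 became 451 and 586 to 693. The 4 family genes called between 12 h and 24 h of Flt3-L became 1 to 3 without 1 array. Where not stated otherwise, the cause was not tested.

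With the replicate block, 2111 genes were called with CsA at 12 h, where the third correlation by replicate number (0.10) fell just short of the rule. Fitted to only the groups compared, a form chosen after seeing the data, the block gave 213 genes and 2 family genes at 12 h, where the same fit without the block gave 177 and 2. At 11 days it gave 1445 genes, against 1766 without the block in that fit and 2391 in the model of all arrays. In the model of all arrays the block changed the call of no family gene but Cd200r1 at 48 h.

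Values that changed sign were uncalled and near 0. Cd200 with CsA at 24 h, main value 0.0125, was -0.0124 with array weights and -0.0113 without CsA array 3 of 12 h and of 24 h, and -0.0591 to 0.0519 without 1 array. Cd200r3 was -0.0246 to 0.0918 with CsA at 12 h and -0.1921 to 0.0108 between 12 h and 24 h of Flt3-L without 1 array. Its effect at 11 days less the earlier average was -0.0068 after quantile normalization, and that of Cd200r4 was -0.1164 to 0.001 without 1 array. Cd200r2 was -0.236 to 0.013 between 24 h and 48 h of Flt3-L without 1 array. Among single genes, the settings set out at the start lost 8 calls and gained 8, those added after seeing the data lost 3 and gained 2, and left-out arrays lost 36 and gained 2. Cd200r3 at 11 days is dim, and no measure of array background was used here, so its distance from background is not known.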
